A study of Canis lupus familiaris with 36 samples.

Results

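CLBL-1 cells, an established canine B-cell line derived from the diffuse large B-cell lymphoma of one dog, were incubated with Ibrutinib (Ibr), and gene expression at 72 h of incubation was compared with that at 24 h. The comparison rested on 5 of the 36 RNA-seq libraries of the series: the 3 Ibr 24 h libraries (passages p121, p126 and p128) and the Ibr 72 h libraries of passages p121 and p126. The libraries were chosen by their labels, except that the remaining Ibr library of the last time point (passage p128) was left out. The study had discarded this library as an outlier by its expression profile, so that leaving it out rests on these same data. Here it served only as a check. Ibr was applied at 1 μM to otherwise unmodified cells of this line. In the other groups of the series the cells received AS-605240 (AS, 5 μM), both inhibitors together (Ibr + AS) or DMSO alone, and were harvested at 24 h, 48 h and 72 h. Both inhibitors were dissolved in DMSO, so that all cells were exposed to it, and the DMSO group received the concentration of the combined treatment. The replicates are passages of a single cell line. The p-values describe the spread between libraries that remained after groups and passages were fitted, estimated over all 35 libraries of the fit. They do not describe the spread between dogs or tumours.

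Ibr binds covalently to Bruton's tyrosine kinase (BTK), which passes the signal of the B-cell receptor on to phospholipase C, calcium and NF-κB, while AS inhibits the gamma isoform of phosphoinositide 3-kinase (PI3K). In cultured cells, the composition of the medium and the cell density also change over days, and genes of the sterol pathway, of amino acid supply and of the response to low oxygen are known to follow such changes. A comparison of 2 incubation times within one treatment therefore contains both the duration of exposure to the inhibitor and the age of the culture. These cannot be told apart by the comparison itself, and the change of the DMSO cells over the same time is given for the called genes named here and in a comparison of its own.

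Between 10021535 and 13517928 reads per Ibr library were counted on genes. Levels are stated in CPM, that is, reads relative to the library size after adjustment for composition (TMM), and a change as log2 of the fold change (log2 FC) with its standard error (SE). Replicates differed beyond the sampling noise of reads: the chi-square divided by its degrees of freedom was 4.02 to 9.35 for the 3 pairs of Ibr 24 h libraries and 3.32 for the pair of Ibr 72 h libraries. The left-out library stood apart from both other Ibr 72 h libraries, with values of 10.5 and 11.97. In the paper's supplementary data, the cultures of its passage at the last time point appear as a separate, later harvest than those at the earlier times. By the sample-sheet numbers in the table's header, from which 2 sequencing runs were inferred, Ibr 24 h of passages p121 and p126 and Ibr 72 h of passage p121 belong to the first run and the other libraries of the comparison to the second.

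Markers of the labelled cell type were present. Of 7 B-cell markers, 5 averaged 1 CPM or more over the 5 libraries, among them TNFRSF13C, the receptor for the B-cell survival factor BAFF, with 122 to 173 CPM. CPNE5 and NFAM1 were at or near 0. Of 13 markers of other cell types, 4 averaged 1 CPM or more, namely LYZ, NCF4, CSF2RB and PMEL. The highest of them was NCF4, listed here as a marker of myeloid cells. It had 187.7, 187.5 and 187.8 CPM at 24 h and 194.3 and 201.9 CPM at 72 h, above the range of TNFRSF13C. The T-cell and natural killer cell markers CD226 and TCF7 had at most 0.219 CPM in each of the 5 libraries, and IL2RB, MLANA and FBN2 had no read in any of them. For markers of other cell types, the summed level was 336 to 361 CPM at 24 h and 321 and 342 CPM at 72 h. That of the B-cell markers was 3596 to 4054 CPM at 24 h and 2901 and 2561 CPM at 72 h. Most of this B-cell sum came from DLA-DRA. In the left-out library the B-cell sum was 3786 CPM, within the range at 24 h, and the sum for other cell types was 282.5 CPM. None of the 20 markers passed both limits of the test between 72 h and 24 h, and their part in the other results was not tested. Since RNA was taken from whole cultures, fewer cells of one kind and less of an RNA per cell cannot be told apart.

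With Ibr, 179 of 18670 genes tested (0.959%) were called differentially expressed between 72 h and 24 h, by edgeR's quasi-likelihood test with limits of 0.05 on the Benjamini-Hochberg adjusted p and of 1 on the size of the log2 FC. Of these, 110 (0.589%) were higher and 69 (0.37%) lower at 72 h. Over all genes tested, the median log2 FC was -0.03. Without the limit on the log2 FC, 834 genes passed the adjusted p-value. Symbols could be paired with 1068 of the genes tested, of which 9 (0.843%) were called, 5 of them higher (among them P4HA2, ALDH8A1, AKAP12 and ACAT2) and 4 lower (A4GALT, TRIM36, GNMT and FBXO43). The other 170 called genes are known here only by their Ensembl identifiers.

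P4HA2 (ENSCAFG00000000824), which encodes a catalytic subunit of collagen prolyl 4-hydroxylase and is a known target of the hypoxia-inducible factors, had the largest rise of the called genes with a symbol. Its level was 3.05, 2.10 and 2.15 CPM in the Ibr 24 h libraries of passages p121, p126 and p128, and 10.9 and 9.29 CPM in the Ibr 72 h libraries of passages p121 and p126. The groups did not overlap, and the left-out library lay highest with 14.4 CPM. Lack of overlap is favoured in genes chosen by the test and is a description only, here and below. The log2 FC was 2.03 (SE 0.24, adjusted p = 6.02e-10, edgeR), a 4.08-fold rise. It was 1.91 in the first and 1.95 in the second sequencing run, each of which holds a single Ibr 72 h library of the comparison. At 48 h, P4HA2 still had 3.16, 2.81 and 2.78 CPM, so that the difference between 72 h and 48 h (log2 FC 1.76) made up most of its rise.

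ACAT2 (ENSCAFG00000000720), which encodes the cytosolic thiolase that opens cholesterol synthesis by joining 2 acetyl-CoA molecules, had the most reads of the called genes with a symbol that rose. It was counted at 166, 157 and 163 CPM at 24 h and at 396 and 291 CPM at 72 h, with 533 CPM in the left-out library. The 3 libraries at 24 h lay close together and all libraries at 72 h lay above them. The log2 FC was 1.06 (SE 0.10, adjusted p = 6.28e-15), just past the limit of 1. Without Ibr 72 h replicate 1, the library of passage p121, it was 0.88 and fell short of that limit, and so it did within the second sequencing run (0.87).

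AKAP12 (ENSCAFG00000000419) encodes a scaffold protein that anchors protein kinases A and C near the cell membrane. It rose from 3.31, 3.65 and 2.25 CPM at 24 h to 7.44 and 6.55 CPM at 72 h (log2 FC 1.23, SE 0.23, adjusted p = 7.79e-05), without overlap, and the left-out library held 8.47 CPM. The 48 h libraries of AKAP12 (2.44, 3.44 and 3.16 CPM) lay in the range of its 24 h libraries. With DMSO the log2 FC of AKAP12 was 0.35 (adjusted p = 0.161), and the difference from Ibr, 0.88 (SE 0.29, adjusted p = 0.0273), was under the limit on the log2 FC. ALDH8A1 (ENSCAFG00000000221), an aldehyde dehydrogenase of tryptophan breakdown, rested on few reads, with 1.19, 0.70 and 0.51 CPM at 24 h against 2.33 and 1.47 CPM at 72 h. Its log2 FC was 1.29 (SE 0.37, adjusted p = 0.024). The call was lost in 10 of 20 alternative settings, and without Ibr 72 h replicate 1 the log2 FC was 0.83 (adjusted p = 0.661). With DMSO the log2 FC of ALDH8A1 was 2.31 (SE 0.25, adjusted p = 9.59e-14), with a mean of 6.24 CPM at 72 h, and the difference of Ibr from DMSO was -1.02 (SE 0.47, adjusted p = 0.147).

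Among the called genes with a symbol that fell, TRIM36 (ENSCAFG00000000219), a ubiquitin ligase of the tripartite motif family, had the most reads. Its level was 121.1, 109 and 109 CPM at 24 h, 102, 90.8 and 89.4 CPM at 48 h, and 49.4 and 55.8 CPM at 72 h. The groups were well apart and the left-out library, with 52.0 CPM, lay between the other 72 h libraries. The log2 FC was -1.15 (SE 0.11, adjusted p = 1.16e-14). It was -1.23 and -1.13 within the sequencing runs, each with a single Ibr 72 h library of the comparison.

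A4GALT (ENSCAFG00000000946), the galactosyltransferase that makes the glycolipid Gb3, which marks germinal centre B cells as CD77, was counted at 6.44, 9.55 and 7.57 CPM at 24 h and at 2.19 and 2.84 CPM at 72 h. Its log2 FC was -1.60 (SE 0.27, adjusted p = 2.35e-05). The 48 h libraries, with 2.98, 5.35 and 4.12 CPM, lay between the other times. The left-out library did not follow: with 8.24 CPM it lay within the range of the 24 h libraries, and with all 36 libraries in the fit the log2 FC was -0.86 and the call was lost (adjusted p = 0.12).

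GNMT (ENSCAFG00000001741), which consumes S-adenosylmethionine to methylate glycine, had 3.90, 2.80 and 4.30 CPM at 24 h and 1.17 and 2.35 CPM at 72 h (log2 FC -1.11, SE 0.30, adjusted p = 0.0133). The groups did not overlap, and the left-out library had 1.33 CPM. The change was uneven between passages, with a difference of log2 CPM of -1.67 in passage p121 and -0.24 in passage p126. Without Ibr 72 h replicate 1 the log2 FC was -0.48 (adjusted p = 0.793). With DMSO it was 0.07 (adjusted p = 0.946), and the difference of Ibr from DMSO was -1.18 (SE 0.40, adjusted p = 0.0293). FBXO43, an inhibitor of the anaphase-promoting complex that was named after its values were seen, had 0.76, 2.10 and 1.13 CPM at 24 h and 0.51 and 0.29 CPM at 72 h (log2 FC -1.79, SE 0.50, adjusted p = 0.017), and a log2 FC of 0.19 with DMSO (adjusted p = 0.831). It averaged 0.96 CPM over the 5 libraries, so that few reads decide its value. The difference of log2 CPM was -0.51 in passage p121 and -2.53 in passage p126, and FBXO43 was not followed in the alternative settings.

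**Figure D1:**
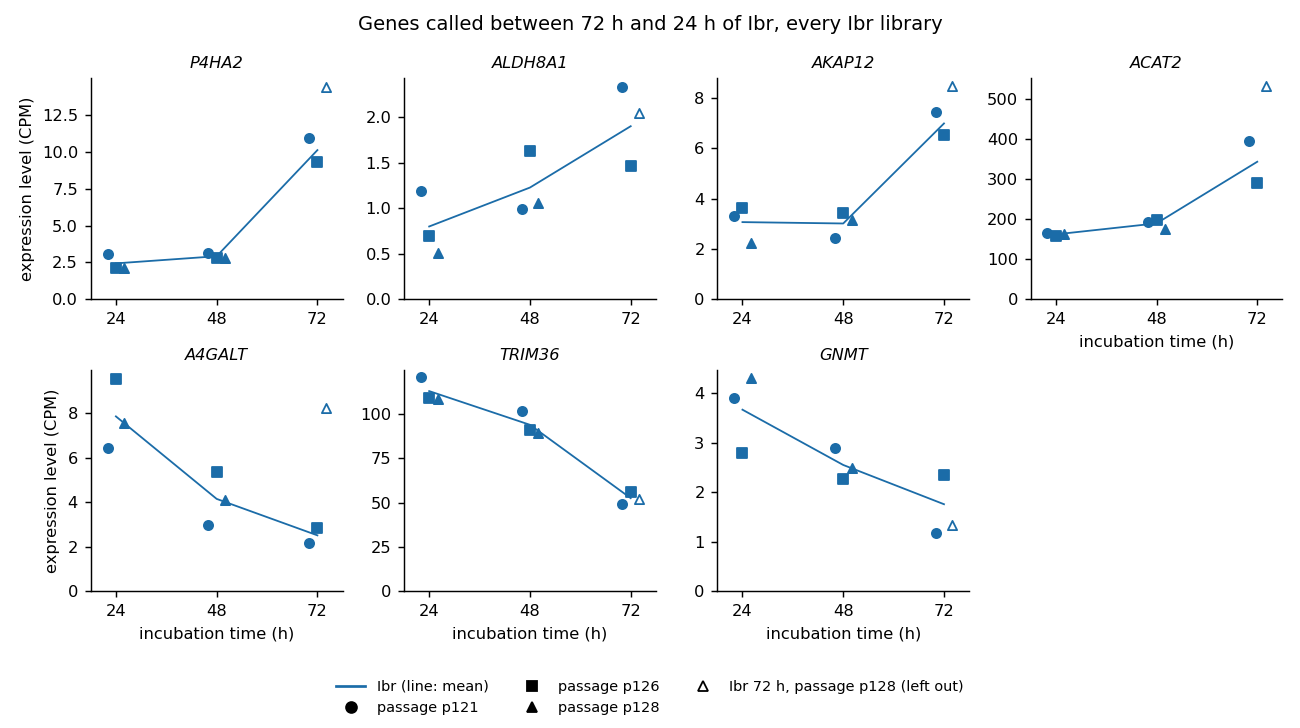
Expression level in CPM (linear axis from 0, own scale per gene) against incubation time in hours for the 7 called genes with a symbol and an average of 1 CPM or more; each point is an Ibr library, its shape gives the passage, lines join group means, and the open triangle is the left-out Ibr 72 h library of passage p128. At 48 h AKAP12 lies within the range of its 24 h libraries. P4HA2 has 2.78 to 3.16 CPM at 48 h against 2.10 to 3.05 CPM at 24 h. For A4GALT the open triangle, at 8.24 CPM, lies with the 24 h libraries.

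Of the called genes without a symbol, ENSCAFG00000014490 rose most, from 2.29, 2.72 and 3.48 CPM at 24 h to 42.3 and 32.3 CPM at 72 h (log2 FC 3.73, SE 0.31, adjusted p = 2.47e-08), and the left-out library held 84.3 CPM. ENSCAFG00000019258 had 1 to 3 reads per library at 24 h, none above the limit of 3 counts, and 39 and 17 reads at 72 h, which makes it at least 8.58-fold higher at 72 h when the limit is applied per library. ENSCAFG00000034433 fell most, from 2.80, 3.42 and 2.87 CPM to 0.29 CPM in passage p121 and no read in passage p126 (log2 FC -4.06, SE 0.53, adjusted p = 3.74e-09). Its value rested on few reads at 72 h, with -8.31 without Ibr 72 h replicate 1 and -3.145 without Ibr 72 h replicate 2. ENSCAFG00000015819 fell from 8.30, 15.7 and 10.5 CPM to 0.95 and 1.47 CPM (log2 FC -3.23, SE 0.44, adjusted p = 3.54e-05). With DMSO the log2 FC was 4.58 for ENSCAFG00000014490, 3.92 for ENSCAFG00000019258, -0.22 (adjusted p = 0.798) for ENSCAFG00000034433 and -1.66 for ENSCAFG00000015819.

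The change was compared between passages for the 156 called genes averaging 1 CPM or more. Passages p121 and p126 took part in the calls, and their median changes in the called direction, 1.32 and 1.21 on the log2 CPM scale, are a description. To follow the genes in libraries with no part in the calls, genes were called again without passage p128. This left 155 genes averaging 1 CPM or more over the 5 libraries. The 24 h library of passage p128 thus took part in the filter on that average. In passage p128 itself, 99 of the 100 genes called higher and 47 of the 55 called lower moved in the same direction. Their median changes in that direction were 1.62 for the genes called higher and 0.95 for those called lower. The share of all genes that rose or fell in passage p128 is not given here. Of the 57 genes called lower with all 5 libraries, 6 were not lower in the left-out library than in the 24 h library of the same passage, A4GALT among them.

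**Figure D2:**
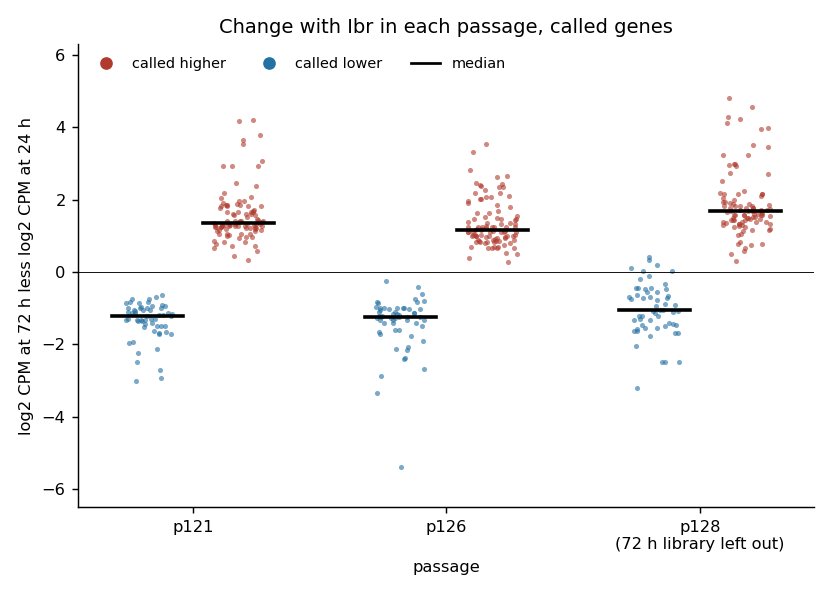
Difference of log2 CPM between the Ibr 72 h and the Ibr 24 h library of each passage for the 99 genes called higher (right in each pair) and the 57 called lower (left) averaging 1 CPM or more; each point is a gene and the bar is the median. In passage p128, whose 72 h library had no part in the calls, all 99 points called higher lie above 0 and 51 of the 57 points called lower lie below it.

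To place the change in time, the interval was divided at 48 h. Between 48 h and 24 h, 6 genes (0.0321%) were called, all of them lower, and none has a symbol. The count moved to 45, 16 and 25 without replicates 1, 2 and 3, and to 2 and 10 without Ibr 24 h replicates 2 and 3. The direction moved with it: 28 of the 45, 7 of the 16 and 11 of the 25 genes were higher, as were 11 of 18 with the compared groups alone and 27 of 39 within the second sequencing run. In the fit with all replicates, 1242 genes passed an unadjusted p-value of 0.05 in either direction. DESeq2 called 6 genes higher and 7 lower. Between 72 h and 48 h, 58 genes (0.311%) were called, 55 higher and 3 lower, and the count was 28 without Ibr 72 h replicate 1, 117 without replicate 1 and 102 without replicate 3. The share of higher genes fell from 94.8% to 71.8% and 80.4% in the last pair of fits, to 80.3% with all 36 libraries and to 53.5%, 38 higher and 33 lower, within the second sequencing run. The comparisons share libraries with the change from 24 h to 72 h, so their values are given side by side only. For the 99 genes called higher over the whole interval, the median log2 FC was 0.35 from 24 h to 48 h and 1.01 from 48 h to 72 h. For the 57 genes called lower, it was -0.62 and -0.70. The median of the rises was thus larger in the last interval, while the falls were spread over both. TRIM36 had -0.25 and then -0.89, and A4GALT -0.92 and then -0.68.

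The change with Ibr was then compared with that of the other treatments over the same time, with which it shares no library. With DMSO, 1076 genes (5.76%) were called between 72 h and 24 h in the same fit, 827 higher (4.43%) and 249 lower. With AS, 221 genes (1.18%) were called, and with Ibr + AS 283 (1.52%), of which 36 (0.193%) were higher and 247 lower. Of the 179 genes called with Ibr, 95 were also called with DMSO, which is 53.1% of the former and 8.83% of the latter, and 88 of them moved in the same direction. With AS, 90 genes were shared (50.3% of the Ibr list and 40.7% of the AS list), all in the same direction. With Ibr + AS, 27 were shared (15.1% and 9.54%), again all in the same direction.

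The rises and the falls are described separately. For the 99 genes that rose with Ibr, the median log2 FC was 1.29 with Ibr, 1.33 with DMSO, 1.18 with AS and 0.24 with Ibr + AS. For the 57 genes that fell with Ibr, it was -1.26 with Ibr, -0.22 with DMSO, -0.76 with AS and -0.71 with Ibr + AS. The medians for Ibr come from the contrast that chose the genes and are a description. P4HA2 followed the first pattern, with a log2 FC of 2.42 with DMSO and 2.63 with AS, but -0.10 (adjusted p = 0.963) with Ibr + AS, and the changes with Ibr and Ibr + AS differed by 2.12 (SE 0.38, adjusted p = 0.00012). ACAT2 had 1.17 with DMSO, 1.09 with AS and 0.46 with Ibr + AS, which differed from Ibr by 0.60 (SE 0.14, adjusted p = 0.00645). TRIM36 had -0.80 with DMSO, -0.83 with AS and -0.14 (adjusted p = 0.483) with Ibr + AS, a difference of -1.005 (SE 0.15, adjusted p = 4.28e-07). Across the 10738 genes averaging 1 CPM or more, the change with Ibr had a Pearson r of 0.26 with that of DMSO, 0.65 with that of AS and 0.42 with that of Ibr + AS. These are correlations across genes, which are not independent replicates, and all treatments used cells of the same passages.

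A test of the difference between the changes showed how far Ibr and DMSO cells parted. The change from 24 h to 72 h differed from that of DMSO for 732 genes (3.92%), 203 with a higher and 529 (2.83%) with a lower value for Ibr. Without replicate 2, 475 were called. Of the 732 genes, 439 were called with DMSO but not with Ibr, 36 with Ibr but not with DMSO, 16 with both and 241 with neither. The 500 genes that rose with DMSO and averaged 1 CPM or more had a median log2 FC of 1.33 with DMSO and 0.24 with Ibr. For the 180 that fell with DMSO, the median was -1.24 with DMSO and -0.15 with Ibr. Both sets were chosen by the DMSO contrast, which favours larger values with DMSO, and the medians are a description. Against AS, the difference passed the limits for 3 genes (0.0161%), 1 with a higher (0.00536%) and 2 with a lower value for Ibr (0.0107%), none with a symbol, while 1050 genes passed an unadjusted p-value of 0.05. The count past both limits was 0 without Ibr 24 h replicate 1 or Ibr 72 h replicate 2, and 14 and 13 without replicates 1 and 3. Against Ibr + AS, it did so for 92 genes (0.493%), 80 of them with a higher (0.428%) and 12 with a lower value for Ibr (0.0643%). Without replicates 1 and 3 the counts were 152 and 158.

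**Figure D3:**
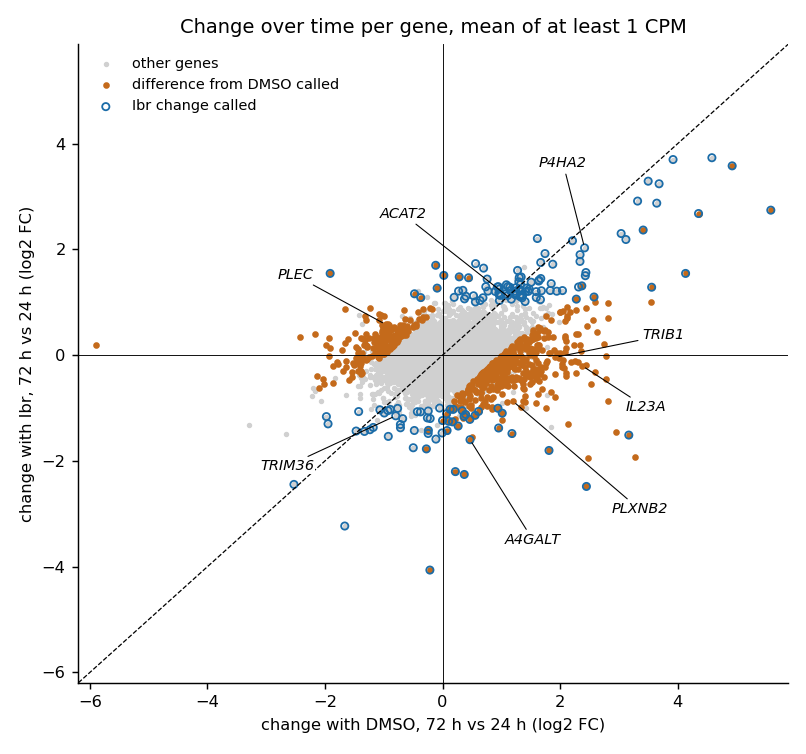
Log2 FC between 72 h and 24 h with Ibr (vertical) against that with DMSO (horizontal) for the 10738 genes averaging 1 CPM or more; blue rings mark genes called with Ibr, orange points genes whose change differed between Ibr and DMSO, and the dashed line marks equal change. P4HA2 and ACAT2 lie near the dashed line, while IL23A and TRIB1 lie far to the right at a change near 0 with Ibr.

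Of the genes with a symbol, 56 differed from DMSO, 19 with a higher and 37 with a lower value for Ibr, which is 5.24% of the symbols against 3.92% of all genes tested. Of the 37 genes, 15 were called higher with DMSO, and 3 (A4GALT, GNMT and FBXO43) were called lower with Ibr. Choosing genes by the difference favours both. Over all genes tested, 4.43% were called higher with DMSO and 0.37% lower with Ibr. IL23A, which encodes the p19 subunit of interleukin 23, had 1.61, 2.02 and 1.43 CPM with Ibr at 24 h and 1.31 and 1.56 CPM at 72 h, while DMSO cells went from 1.41, 1.44 and 0.88 CPM to 5.11, 8.50 and 6.99 CPM. The difference of the changes was -2.58 on the log2 scale (SE 0.44, adjusted p = 3.65e-06). TRIB1, a pseudokinase that directs proteins to degradation, had 32.96, 22.98 and 25.1 CPM with Ibr at 24 h and 27.5 CPM in both libraries at 72 h, against 105 to 108 CPM with DMSO at 72 h. Its difference was -1.96 (SE 0.36, adjusted p = 0.000489), and without replicate 2 the adjusted p-value was 0.0507. PSAT1, an enzyme of serine synthesis, had 181 and 185 CPM with Ibr at 72 h and 587 to 695 CPM with DMSO, with a difference of -1.49 (SE 0.14, adjusted p = 1.22e-15). TTC39B, which takes part in lipid metabolism, differed by -2.01 (SE 0.32, adjusted p = 4.39e-07), with 2.55 and 2.64 CPM with Ibr and 10.2 to 10.3 CPM with DMSO at 72 h.

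PLXNB2 (ENSCAFG00000000673), a receptor for semaphorins that is used in cell guidance and migration, moved in opposite directions in Ibr and DMSO cells. With Ibr it went from 20.2, 23.5 and 22.4 CPM at 24 h to 11.7 and 11.9 CPM at 72 h, with 12.9 CPM in the left-out library (log2 FC -0.87, SE 0.17, adjusted p = 0.000652). With DMSO it went from 7.13, 10.7 and 9.33 CPM to 23.3, 19.9 and 19.6 CPM (log2 FC 1.20, adjusted p = 9.3e-09). The levels with Ibr were thus above those with DMSO at 24 h and below them at 72 h, and the difference of the changes was -2.07 (SE 0.23, adjusted p = 1.7e-09). PLXNB2 also fell with Ibr + AS (log2 FC -1.46, adjusted p = 1.41e-10), and had -0.05 (adjusted p = 0.983) with AS. Its fall with Ibr did not pass without Ibr 72 h replicate 2 (adjusted p = 0.0502). A4GALT had a difference of the same size, -2.07 (SE 0.34, adjusted p = 6.67e-06), with a log2 FC of 0.47 (adjusted p = 0.0925) with DMSO and -2.42 with Ibr + AS.

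Of the 19 genes with a higher value for Ibr, all 19 passed the adjusted p-value with DMSO in the lower direction, and 7 of them both limits, while 1 passed it with Ibr. Choosing genes by the difference favours falls with DMSO, so these counts are a description. Of the 18670 genes tested, 4985 passed the adjusted p-value with DMSO and 834 with Ibr in either direction, and 1.33% were called lower with DMSO. PLEC, which encodes the cytoskeletal linker plectin, fell with DMSO from 824, 920 and 894 CPM to 486, 367 and 521 CPM (log2 FC -0.97, SE 0.18), whereas Ibr cells had 1179, 1180 and 856 CPM at 24 h and 1482 and 1740 CPM at 72 h (log2 FC 0.58, SE 0.20, adjusted p = 0.119). The difference was 1.55 (SE 0.27, adjusted p = 0.000289). The left-out library, with 926 CPM of PLEC, lay within the range of the Ibr 24 h libraries. HIGD1B, GRK1, GRTP1 and NEBL had differences of 2.11 (SE 0.52), 1.87 (SE 0.54), 1.60 (SE 0.53) and 1.43 (SE 0.40), with adjusted p-values of 0.00169, 0.00923, 0.0267 and 0.00683. These genes had means of 1.27 to 4.76 CPM over the 5 libraries, and the change of each with Ibr alone did not pass the test. For GRTP1 the difference was 0.88 without replicate 2 and 1.20 without Ibr 72 h replicate 2, and both fell short (adjusted p = 0.555 and 0.238). GRK1 without replicates 1 or 2 and NEBL without replicate 2 also lost the call (adjusted p = 0.121, 0.115 and 0.11).

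**Figure D4:**
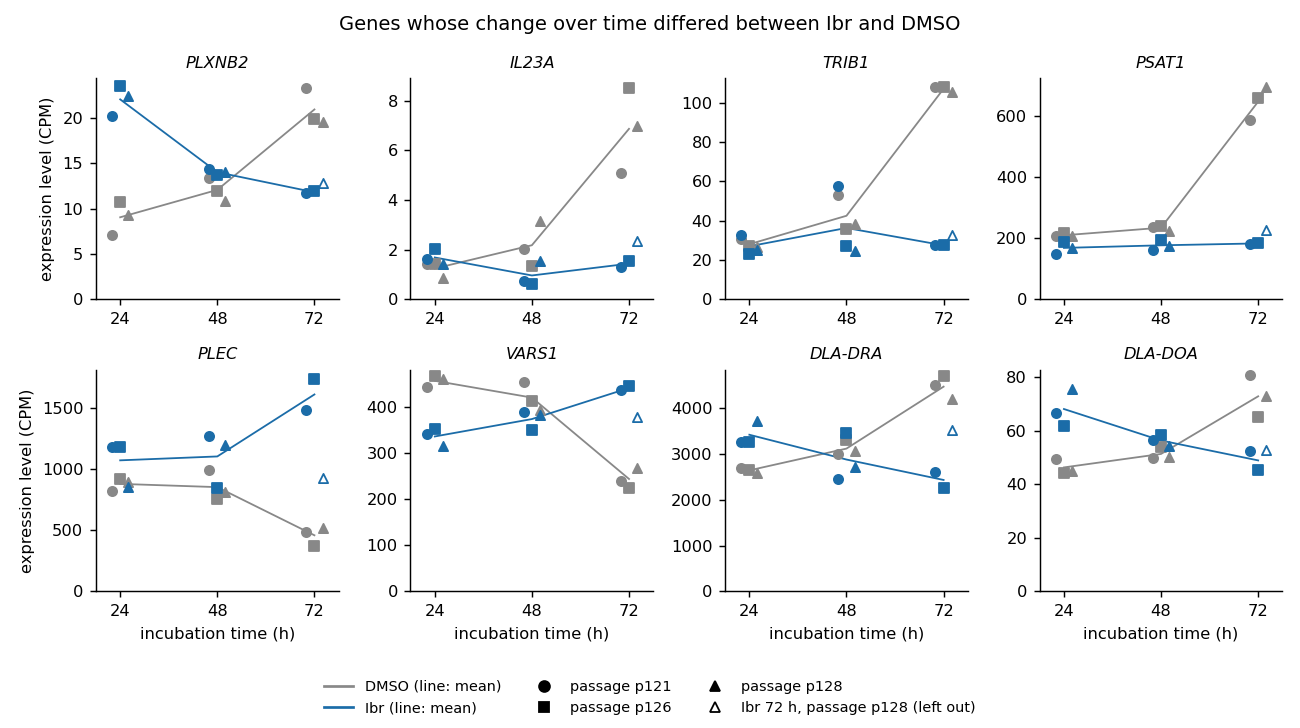
Expression level in CPM (linear axis from 0, own scale per gene) against incubation time in hours for 8 genes whose change differed between Ibr (blue) and DMSO (grey); points are libraries, shapes give the passage, lines join group means, and the open triangle is the left-out library. At 72 h the DMSO libraries of TRIB1 and PSAT1 lie far above the Ibr libraries, while those of PLEC and VARS1 lie below them.

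The genes with a symbol were grouped by known function into lists, which are described by counts and medians beside the median of -0.03 and the 0.959% called of all genes tested. Of the 31 genes of B-cell receptor, PI3K and NF-κB signalling, none was called, and the median log2 FC was -0.06. INPP5D, the lipid phosphatase SHIP1 that counteracts PI3K and the member with the most reads, had a log2 FC of 0.21 (adjusted p = 0.343). NFATC1, a transcription factor activated by calcium, had 0.18 (adjusted p = 0.519), and PIK3R1, the regulatory subunit of PI3K, 0.11 (adjusted p = 0.746). SLA, an adaptor that dampens antigen receptor signalling, passed the adjusted p-value with a smaller rise, from 14.3, 9.08 and 10.9 CPM to 17.4 and 18.5 CPM (log2 FC 0.67, SE 0.16, adjusted p = 0.00206). DEPTOR, an inhibitor of mTOR, was the member of this list that differed from DMSO (-1.42, SE 0.44, adjusted p = 0.0162), with a log2 FC of -0.38 (adjusted p = 0.74) with Ibr and 1.04 with DMSO.

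Antigen presentation had the lowest median of the lists of pathways, -0.33 over 8 genes, and 0.42 with DMSO. None of its members passed both limits with Ibr, and 3 passed the adjusted p-value, all lower. DLA-DRA (ENSCAFG00000000803), the alpha chain of the canine MHC class II molecule DR, had 3272, 3275 and 3730 CPM at 24 h and 2614 and 2258 CPM at 72 h (log2 FC -0.48, SE 0.12, adjusted p = 0.01). The groups did not overlap, but the left-out library had 3528 CPM, within the range of the 24 h libraries. With all 36 libraries in the fit the log2 FC of DLA-DRA was -0.29 (adjusted p = 0.186), and without Ibr 72 h replicate 2, without replicate 2 or without Ibr 24 h replicate 3 it did not pass either (adjusted p = 0.469, 0.209 and 0.0584). DLA-DOA, a chain of the molecule that modulates peptide loading on class II, had a log2 FC of -0.46 (SE 0.12, adjusted p = 0.0133). DLA-DMA, a chain of the peptide-loading catalyst, had -0.36 (SE 0.11, adjusted p = 0.0248), and the left-out library had as much of it, 511 CPM, as the highest 24 h library. With DMSO, DLA-DRA rose by 0.74 and DLA-DOA by 0.63, and the differences between the changes were -1.21 (SE 0.16, adjusted p = 3.88e-08) and -1.09 (SE 0.16, adjusted p = 3.46e-07). With Ibr + AS the log2 FC of DLA-DRA was -0.63 and that of DLA-DOA -0.62, and with AS -0.00 and -0.17, which did not pass. TAP1, part of the peptide transporter for class I, had -0.17 (adjusted p = 0.462). MHC genes have close relatives in the genome, and how reads were divided between them was not checked.

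Of the 12 interferon response genes, none was called and the median was -0.12. IFNGR1, a chain of the receptor for interferon gamma, fell from 187, 175 and 179 CPM to 119 and 103 CPM (log2 FC -0.72, SE 0.11, adjusted p = 1.19e-07). It also fell with DMSO (-0.64) and AS (-0.62), and its change with Ibr + AS (0.05, adjusted p = 0.867) differed from that with Ibr by -0.77 (SE 0.14, adjusted p = 8.32e-05). DDX58, the sensor of viral RNA also known as RIG-I, had 8.22, 7.84 and 8.19 CPM at 24 h and 5.25 and 4.01 CPM at 72 h (log2 FC -0.78, SE 0.21, adjusted p = 0.0112), and differed from DMSO by -1.05 (SE 0.27, adjusted p = 0.00287). The left-out library had 6.12 CPM. None of 15 cytokines and cytokine receptors was called, with a median of 0.06, and only 5 of them averaged 1 CPM or more. LTA, with the most reads, had a log2 FC of 0.11 (adjusted p = 0.775).

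The early response list, which holds transcription factors and feedback regulators induced soon after stimulation, had a median of 0.05 with Ibr over 11 genes and 0.99 with DMSO, where 4 of them were called higher and none with Ibr. MYC, the growth-promoting transcription factor, had 184, 169 and 168 CPM at 24 h and 208 and 240 CPM at 72 h (log2 FC 0.35, SE 0.11, adjusted p = 0.0384). Its log2 FC was 0.99 with DMSO and -0.41 with Ibr + AS. Its changes differed from DMSO by -0.64 (SE 0.14, adjusted p = 0.0006) and from Ibr + AS by 0.76 (SE 0.14, adjusted p = 0.000269), both under the limit on the log2 FC. In the left-out library MYC was at its level of 24 h, 169 CPM. The change of MYC with Ibr was 0.24 with all 36 libraries (adjusted p = 0.164), 0.21 without replicate 2 (adjusted p = 0.614) and 0.22 without Ibr 72 h replicate 2 (adjusted p = 0.678). It also missed the limit without the replicate block (adjusted p = 0.0528) and without replicate 3 or any single Ibr 24 h library (adjusted p = 0.0645 to 0.113). TRIB1 and IER3, a regulator of stress-induced cell death, were the members called for the difference from DMSO, IER3 with -1.01 (SE 0.31, adjusted p = 0.022). MYB, a transcription factor of immature blood cells, had a log2 FC of 0.12 (adjusted p = 0.772) with Ibr and 0.94 with DMSO.

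In the hypoxia list of 11 genes, P4HA2 was called and the other 10 were not, with a median of 0.22 with Ibr and 0.25 with DMSO. KDM3B, a histone demethylase with the most reads of the list, had a log2 FC of 0.15. PFKFB2, which makes the activator of glycolysis fructose 2,6-bisphosphate, differed from DMSO by 1.16 (SE 0.28, adjusted p = 0.00126), and its change with Ibr was 0.56 (adjusted p = 0.0754). IER3, which is also in this list, was its member with a lower value for Ibr (-1.01). Of 17 genes of sterol and lipid metabolism, ACAT2 was called and the median was 0.01. SQLE, the epoxidase that converts squalene, rose from 506, 503 and 545 CPM to 925 and 829 CPM (log2 FC 0.73, SE 0.11, adjusted p = 3.63e-07). SREBF2, the transcription factor that switches on cholesterol synthesis, rose from 737, 732 and 687 CPM to 1068 and 950 CPM (log2 FC 0.48, SE 0.10, adjusted p = 0.000434). For both genes the groups did not overlap, and the left-out library was at 1045 and 1027 CPM. Without Ibr 72 h replicate 1, SREBF2 missed the limit (adjusted p = 0.0593). The 3 cholesterol genes also rose with DMSO, with differences from Ibr of -0.11, 0.14 and 0.06 for ACAT2, SQLE and SREBF2 that did not pass (adjusted p = 0.76, 0.665 and 0.976). The other 14 members did not pass the adjusted p-value.

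Of 16 genes of amino acid and one-carbon metabolism, GNMT was called, and the median was 0.12. VARS1 and MARS1, which charge the transfer RNAs for valine and methionine, and SHMT2, which supplies one-carbon units from serine in mitochondria, passed the adjusted p-value with small rises. Their log2 FC was 0.38 (SE 0.10, adjusted p = 0.0162), 0.33 (SE 0.10, adjusted p = 0.0414) and 0.34 (SE 0.11, adjusted p = 0.0498). VARS1 fell with DMSO from 442, 467 and 460 CPM to 240, 224 and 267 CPM, and the difference of the changes was 1.31 (SE 0.14, adjusted p = 2.36e-12). ATF4, the transcription factor of the amino acid response and the member with the most reads, had a log2 FC of 0.13 (adjusted p = 0.728). Of 15 genes of ribosome biogenesis none was called with Ibr, with a median of 0.14 against -0.50 with DMSO. POP1, a subunit of ribonucleases P and MRP, differed from DMSO by 1.25 (SE 0.14, adjusted p = 6.09e-12) and WDR46, a factor of ribosomal RNA processing, by 1.23 (SE 0.15, adjusted p = 4.92e-10). POP1 had 75.9, 75.8 and 69.9 CPM with Ibr at 24 h and 93.8 and 92.7 CPM at 72 h (log2 FC 0.33, adjusted p = 0.0511), while DMSO cells went from 88.3, 88.4 and 88.98 CPM to 50.9, 44.8 and 45.9 CPM. For 15 ribosomal proteins and translation factors the median was -0.11 with Ibr and 0.32 with DMSO, with none called, and PABPC1, with the most reads, had -0.14 (adjusted p = 0.647).

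**Figure D5:**
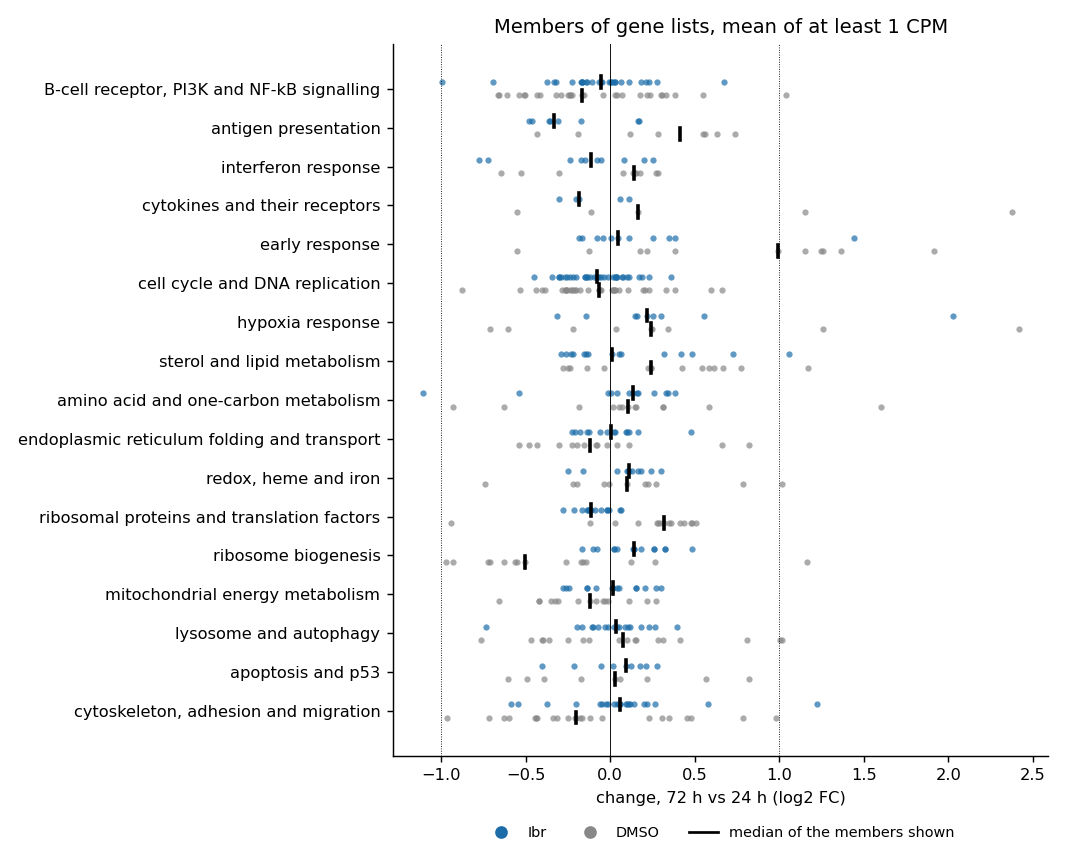
Log2 FC between 72 h and 24 h of the members of 17 gene lists averaging 1 CPM or more, with Ibr (blue, upper row of each list) and DMSO (grey, lower row); each point is a gene, black bars are medians of the members shown and dotted lines mark the limits of -1 and 1. The bars of Ibr lie within 0.35 of 0 in every list, while those of DMSO reach 0.99 for the early response and -0.50 for ribosome biogenesis.

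In the remaining lists few genes passed the test with Ibr. Of 36 genes of the cell cycle and DNA replication none was called, with a median of -0.07. TONSL, which acts in the repair of stalled replication forks, passed the adjusted p-value (log2 FC 0.36, SE 0.11, adjusted p = 0.034), and LMNB1, the nuclear lamin B1 with the most reads of the list, had -0.22 (adjusted p = 0.264). None of 10 genes of apoptosis and p53 was called (median 0.06), and BCL2, the inhibitor of apoptosis, had 0.28 (adjusted p = 0.296) with Ibr and 0.57 with DMSO. DAPK1, with the most reads of them, had 0.12 (adjusted p = 0.901). Of 26 genes of the cytoskeleton, adhesion and migration, AKAP12 was called and the median was 0.06, and MYH9, a heavy chain of non-muscle myosin with the most reads of the list, had -0.02. Among 15 genes of folding and transport in the endoplasmic reticulum (median -0.02), 11 of redox, heme and iron (0.11), 15 of mitochondrial energy metabolism (0.02) and 19 of lysosome and autophagy (0.04), none was called. WFS1, a membrane protein of the endoplasmic reticulum, passed the adjusted p-value with a log2 FC of 0.48 (SE 0.11, adjusted p = 0.00111). In the members of these lists with the most reads, the log2 FC was 0.16 for CANX, -0.16 for TXNRD1, 0.16 for ATP5F1B and -0.11 for VPS28, and none passed (adjusted p = 0.518, 0.488, 0.555 and 0.828).

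Outside the lists, DSE, the epimerase that makes dermatan sulfate, passed the adjusted p-value with a fall (log2 FC -0.48, SE 0.10, adjusted p = 0.000406) that was larger with DMSO (-0.73) by a difference that did not pass (0.25, adjusted p = 0.24). The fall of DSE did not pass without replicate 2 or without Ibr 72 h replicate 2 (adjusted p = 0.0765 and 0.0991). NHSL1 had a log2 FC of 0.40 (adjusted p = 0.71). Over all symbols, 51 passed the adjusted p-value, 33 higher and 18 lower at 72 h, which is 4.78% of the symbols against 4.47% of all genes tested.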

How the data were processed

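Libraries of poly-A RNA were read from a single end by the authors, who mapped the reads with STAR 2.7.5a to the CanFam3.1 assembly, per the submitters' processing notes, and deposited the raw counts per Ensembl gene of 36 libraries. Which strand column was kept is not given in the sources used here, so overlapping genes on opposite strands cannot be told apart. Of 30424 genes, 18670 had at least 2 reads over the 35 libraries fitted. The fit used edgeR 4.0.16 and limma 3.58.1 in R 4.3.3 with TMM factors, passage and the 12 groups as terms and a robust quasi-likelihood test, with limits of 0.05 on the Benjamini-Hochberg adjusted p and of 1 on the size of the log2 FC. Passages were kept as blocks, as in the study: libraries of the same passage deviated from their group means with a median r of 0.092 (187 pairs) and those of different passages with -0.034 (374 pairs). Log2 CPM used a prior count of 1. DESeq2 1.42.0, edgeR's RLE factors, filterByExpr and glmTreat, a limit of 1 read, all 36 libraries, no passage term, the compared groups alone and fits without a replicate or library were alternatives, and the sequencing run was added after the data had been seen. Tested on simulated data for Ibr 72 h vs Ibr 24 h, 199 of 200 genes changed by a log2 FC of 2 were called (99.5%), with 0 other calls among 18221 genes. The changed genes averaged 1 CPM or more, and the simulated spread followed only the trend over expression level. Spread particular to a gene or library and smaller changes were not simulated, while the genes called here had a median size of log2 FC of 1.34. The result therefore does not give the share of true or false calls in these data.

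For DMSO 24 h replicate 3 the title and the passage field of the labels differ (p126 and p128), and the field was followed. Symbols came from the given parts of the paper's supplementary tables and pair 1068 identifiers, so lists hold only part of each pathway. The lists, the comparisons and the rule for named genes were chosen with earlier results of these data known. Named were up to 10 called symbols per direction averaging 1 CPM or more and the same direction in passages p121 and p126 (4 and 3 qualified), the 5 highest and 5 lowest differences from DMSO, the called members of each list and its member with the most reads, and 7 genes of the study. Genes with an adjusted p of at most 0.05 and a smaller change, and list members that differed from DMSO, were named after their values were seen. Promoter sequences were not used here, so that the planned motif count was not made. CPM intervals of counting error were not added, since the spread between passages exceeded it. One called gene is not reported here.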

Additional observations from a re-analysis of the deposited data

Results flagged for a closer look

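Tests of the difference between changes over time picked out the following results, all by edgeR's quasi-likelihood test after Benjamini-Hochberg adjustment. The change from 24 h to 72 h with Ibr differed from that with DMSO for 732 genes. Among named genes and list members with a lower value for Ibr, the log2 differences were -3.85 for ENSCAFG00000034433, -2.58 for IL23A, -2.55 for IL5, -2.07 for PLXNB2 and for A4GALT, -2.01 for TTC39B, -1.96 for TRIB1, -1.49 for PSAT1 and -1.42 for DEPTOR. They were -1.21 for DLA-DRA, -1.18 for GNMT, -1.09 for DLA-DOA, -1.05 for DDX58, -1.04 for ANXA1 and for AGPAT4, and -1.01 for IER3. IL5 had a mean of 0.357 CPM over the 5 Ibr libraries, at a depth where a few reads decide the value. Among those with a higher value for Ibr, the differences were 1.16 for PFKFB2, 1.23 for WDR46, 1.25 for POP1, 1.31 for VARS1, 1.43 for NEBL, 1.55 for PLEC, 1.6 for GRTP1, 1.87 for GRK1 and 2.11 for HIGD1B.

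Against AS, 3 genes differed, and none of them has a symbol. Against Ibr + AS, 92 genes differed. Of the named genes and list members, TRIM36 had a lower value for Ibr (-1 on the log2 scale, at the limit). The differences were 1.5 for NEBL, 1.61 for MTSS1, 2.12 for P4HA2, 3.63 for ENSCAFG00000014490 and 2.97 for ENSCAFG00000019258, whose fitted value depends on the prior count because its Ibr 24 h libraries held at most 3 reads. P4HA2 was at 2.12 ± 0.69 CPM (SD, n = 3) with Ibr + AS at 24 h and at 2.00 ± 0.35 CPM (n = 3) at 72 h. MTSS1, a protein that bends membranes and binds actin, was at 9.24 ± 0.98 CPM (n = 3) and 11.1 ± 0.96 CPM (n = 2) with Ibr, and at 51.3 ± 11.1 CPM and 20.3 ± 6.45 CPM (n = 3 each) with Ibr + AS, so that the fall lay in the combined treatment. No group holds 4 or more libraries, so single libraries were not tested against their group.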

How the results depend on the processing

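Without the replicate block, that is without the passage term, 159 genes were called for Ibr 72 h vs Ibr 24 h in place of 179, 2 in place of 6 for 48 h vs 24 h, 49 in place of 58 for 72 h vs 48 h, and 721, 2 and 72 in place of 732, 3 and 92 for the differences from DMSO, AS and Ibr + AS. Testing for a log2 FC beyond 1 with glmTreat left 21, 0, 6, 57, 0 and 10 genes in the same order, and 19 of the 21 were higher (90.5% against 61.5%). DESeq2 called 13 genes for 48 h vs 24 h. All 36 libraries gave 137 for 72 h vs 48 h and 1 for the difference from AS. The compared groups alone gave 18 for 48 h vs 24 h and 33 for the difference from AS, and without the 72 h libraries of passage p128 the latter was 6. The sequencing runs were added after the data had been seen. In the first run alone, with 1 Ibr 72 h library, 112 genes (76.8% higher) were called for 72 h vs 24 h, 2 for 48 h vs 24 h and 318 for the difference from DMSO. In the second run alone, with 1 Ibr library per time, the counts were 39 for 48 h vs 24 h, 8 for the difference from AS and 212 for that from Ibr + AS. Leaving out a replicate or library gave 120 to 185 genes for 72 h vs 24 h (127, 76.4% higher, without Ibr 72 h replicate 2), 2 to 45 for 48 h vs 24 h, 28 to 117 for 72 h vs 48 h, and 475 to 785, 0 to 14 and 65 to 158 for the differences from DMSO, AS and Ibr + AS. A lone library left in a group was assumed to vary like the other groups. The cause of these shifts was not tested.

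The 11 called genes with values in every setting kept their direction in all 220 alternative values and their call in 194. These genes were chosen by the main fit and the settings reuse its libraries, which favours both counts. P4HA2 kept the call in all 20 settings and TRIM36 and AKAP12 in 19. A4GALT kept it in 18, ACAT2 in 16, GNMT in 13 and ALDH8A1 in 10. The sign reversed, always for genes that were not called. GRTP1 had -0.271 in the first run, IL23A 0.023 and TRIB1 0.131 with 36 libraries, TRIB1 0.02 without the block, and LTA -0.136 and MYH9 0.131 in the second run. With single replicates or libraries left out, GRTP1 ranged from -0.127 to 0.79, TRIB1 from -0.237 to 0.146, MYH9 from -0.073 to 0.037 and MYB from -0.038 to 0.3. In the Ibr libraries, 3 reads are 0.222 to 0.299 CPM, so that changes of genes near 1 CPM rest on few reads.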

Other observations

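Some genes outside the lists passed the adjusted p-value for Ibr 72 h vs Ibr 24 h with a log2 FC under the limit of 1, and were chosen after their values were seen. AGO2, the slicing component of RNA silencing complexes, had 36.01, 41.3 and 32.5 CPM at 24 h and 68.2 and 65.3 CPM at 72 h (log2 FC 0.86, SE 0.12, adjusted p = 1.22e-07, edgeR), with 66.2 CPM in the left-out library. Its log2 FC was 0.31 with DMSO, 0.45 with AS and 0.46 with Ibr + AS, and the difference from DMSO was 0.55 (SE 0.16, adjusted p = 0.0108). ADAMTS2, which trims procollagen, had 17.96, 21.7 and 16.7 CPM at 24 h and 32.9 and 32.8 CPM at 72 h, with 29.5 CPM in the left-out library. Its log2 FC was 0.80 with Ibr (SE 0.14, adjusted p = 1.63e-05), 0.71 with AS and 0.14 with DMSO (adjusted p = 0.522). PTCH1, the receptor for Hedgehog proteins, had 8.64, 9.86 and 8.29 CPM at 24 h and 15.4 and 14.2 CPM at 72 h (log2 FC 0.72, SE 0.17, adjusted p = 0.00274), with a log2 FC of 1.15 with DMSO and 0.10 (adjusted p = 0.822) with Ibr + AS. For none of these genes did the Ibr libraries of 24 h and 72 h overlap, which their choice by the adjusted p-value favours. The share of all genes without overlap is not given here.

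TMEM71 moved in opposite directions with Ibr and DMSO, as PLXNB2 did. With Ibr it had 30.4, 25.1 and 25.1 CPM at 24 h and 13.2 and 14.8 CPM at 72 h (log2 FC -0.98, SE 0.21, adjusted p = 0.004), with 11.1 CPM in the left-out library, and its log2 FC was 0.84 with DMSO (adjusted p = 0.0017) and -1.62 with Ibr + AS. The changes with Ibr and DMSO differed by -1.81 (SE 0.29, adjusted p = 4.63e-05). POLI, a DNA polymerase that copies past damaged bases, had 21.2, 24.5 and 23.5 CPM at 24 h and 15.8 and 13.98 CPM at 72 h with Ibr (log2 FC -0.64, SE 0.14, adjusted p = 0.00131), against a log2 FC of 0.13 with DMSO (adjusted p = 0.524) and -0.56 with Ibr + AS. Its difference from DMSO was -0.78 (SE 0.19, adjusted p = 0.00146).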
